A study of Mus musculus with 12 samples.

Results

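The genes described here are 44 genes of DNA replication and mitosis, taken by symbol from the 32245 gene rows of a read count table of mouse OCY454 cells. They are 24 replication genes (the Mcm2-7 helicase and its loaders, polymerases, clamp loaders, nucleotide enzymes and the controls of S phase entry), 19 mitotic genes (the proliferation antigen Ki-67, Cdk1 and its cyclins, mitotic kinases, checkpoint, kinetochore and spindle genes) and Ccnd1, which encodes cyclin D1. The rule lists gene names and sets no threshold on a value, though the genes were chosen with earlier results of these data known. The question was how the replication genes compare with the mitotic genes across the study's 6 groups. All 44 of the 44 genes passed the filter on low counts.

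OCY454 is a mouse osteocyte-like line from long bones of mice that carry a temperature-sensitive large T antigen, so that the cells divide at the low temperature and differentiate at the high one. Per the labels, Piezo1 KO cells, in which exons 19 to 21 of the mechanically gated ion channel gene Piezo1 were deleted by CRISPR-Cas9, and WT cells of the same line were grown at 33 °C and moved to 37 °C, and their poly(A) RNA was taken for sequencing on days 1, 14 and 28. The study asked what Piezo1 does as osteocytes differentiate. There were 2 libraries in each of 6 groups: KO day 1, KO day 14 and KO day 28, and WT day 1, WT day 14 and WT day 28. All 12 libraries come from cells grown in alpha-MEM with 10% serum and 1% antibiotic-antimycotic. The labels do not say whether the KO line is a single clone, nor whether the libraries of a group come from separate cultures, so a p-value here covers no more than the variation among these particular libraries, which may be technical.

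A dividing cell copies its DNA in S phase and separates the copies in mitosis. Cdc6 and Cdt1 load the Mcm2-7 ring on DNA in G1, the kinase Cdk2 with cyclin E starts its firing, and Cdc45 and the GINS proteins turn the ring into the running helicase behind which primase and polymerases work. Most of these genes are transcribed around the G1/S boundary under E2F factors. The mitotic genes peak later, in G2 and M, under the DREAM and MuvB complexes, B-Myb and Foxm1, many of them through a promoter element called CHR (cell cycle genes homology region) and nearby CCAAT boxes. In bone, cells of the osteoblast lineage leave the cell cycle as they become osteocytes.

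The libraries held between 8590067 and 15357427 counts, and the 44 genes took between 0.859% and 1.18% of them. Replicates differed most at day 28: among genes of at least 10 CPM (the usual unit of counts per library size, after TMM scaling in edgeR), 62 differed over 1.5-fold between the KO libraries and 167 between the WT libraries, against 3 to 24 in the other groups. Piezo1 had 1211 to 4058 counts in KO libraries and 1781 to 3369 in WT libraries, and since most of the gene is outside the deleted exons, this gene count hardly checks the labels. The 8 osteoblast markers summed to between 6400 and 37100 CPM, mostly Col1a1 and Col1a2, though Bglap stayed at or under 6.57 CPM. The 7 osteocyte markers summed to between 78.7 and 125 CPM, mostly Pdpn (14.1 to 59.8 CPM) and Fam20c (28.9 to 56.5 CPM). Dmp1 reached 16.1 CPM, Phex 11.4 CPM and Mepe 2.2 CPM. Sost stayed at or under 1.3 CPM, and Fgf23 at or under 0.131 CPM.

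The mitotic genes stood higher in KO cells than in WT cells at day 1 and further at day 14. The replication genes as a class had no common direction on these days. On a scale that sets each gene's WT day 1 mean to 0, the 19 mitotic genes averaged 0.34 and 0.34 (log2) in the KO day 1 libraries, 0.68 and 0.70 in those of day 14 and 0.16 and 0.28 in those of day 28, against 0.04 and -0.04, 0.09 and 0.06, and 0.00 and 0.01 in WT cells on the same days. The 24 replication genes averaged 0.03 and 0.04 in the KO libraries of day 1, 0.18 and 0.20 in those of day 14 and 0.23 and 0.22 in those of day 28, against 0.02 and -0.02, 0.20 and 0.15, and 0.06 and 0.04 in WT cells. The mitotic mean of each KO library was thus above that of each WT library of its day, while the replication means of the KO and WT libraries overlapped or nearly touched at days 1 and 14. Mitotic minus replication was 0.30 ± 0.005 in KO cells at day 1, 0.50 ± 0.007 at day 14 and -0.01 ± 0.093 at day 28, against 0.00 ± 0.032, -0.10 ± 0.015 and -0.04 ± 0.017 in WT cells (SD, n = 2). This difference does not depend on how the libraries are scaled, because the scaling factor of a library cancels in it. The class means do: with library totals alone, the replication mean was -0.03 in KO day 1 and -0.01 in WT day 28 cells, and the mitotic mean was -0.05 in WT day 28 cells. In bulk RNA, a larger number of cells in a phase and more RNA per cell cannot be told apart.

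**Figure D1:**
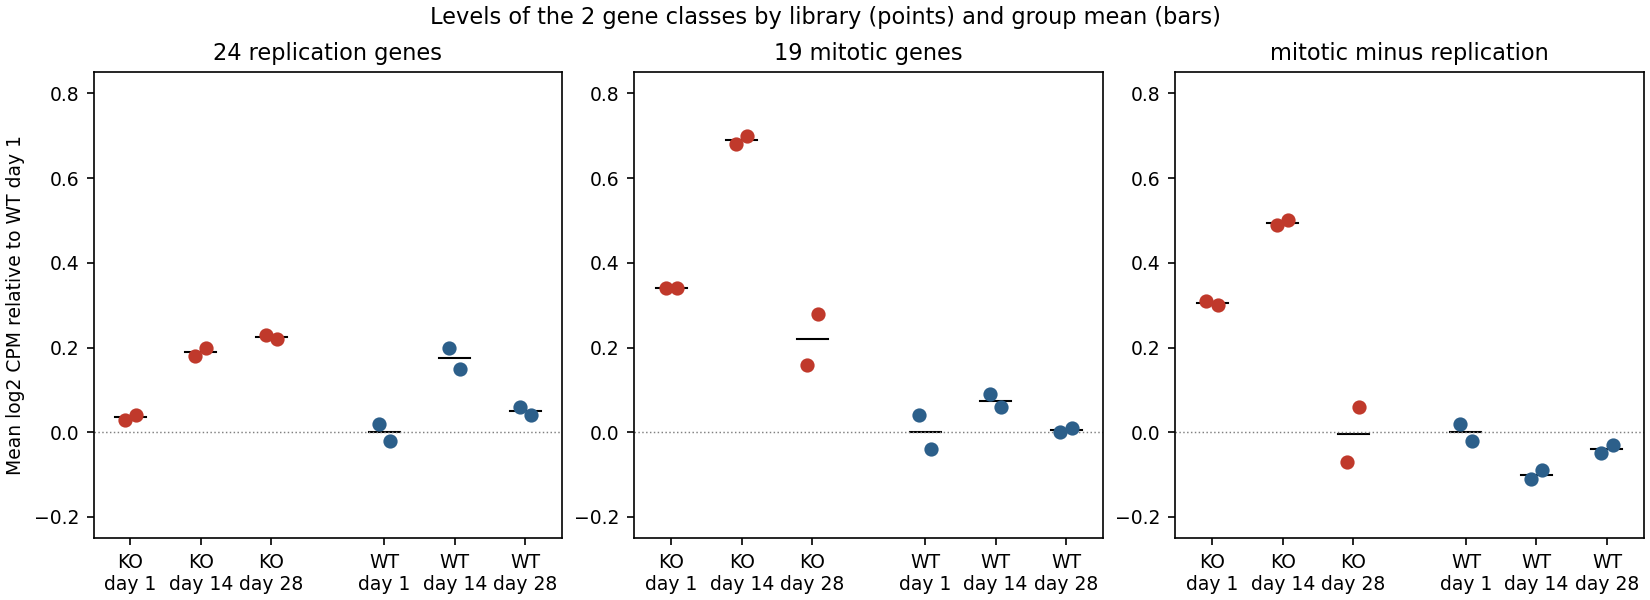
Mean log2 CPM relative to WT day 1 of the 24 replication genes, of the 19 mitotic genes and of their difference, for each library (points) with the group mean (bars), KO groups left of WT groups. The mitotic mean reaches 0.68 and 0.70 in the KO day 14 libraries and lies between -0.04 and 0.09 in the 6 WT libraries, and the difference between the classes is near 0 in KO cells at day 28, unlike days 1 and 14.

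Each gene was tested with edgeR's quasi-likelihood test, and "called" means a Benjamini-Hochberg adjusted p below 0.05 over 13772 genes. At day 1, 13 of the 19 mitotic genes were called higher in KO cells than in WT cells and 0 lower, with a median log2 fold change of 0.33; of all genes tested, 19.5% were called higher and 20.8% lower, with a median of -0.01. Of the 24 replication genes, 9 were called higher and 7 lower, with a median of 0.00. At day 14, 17 of 19 mitotic genes were called higher and 0 lower (median 0.54), and of the replication genes 9 were called higher and 8 lower (median -0.05); the share over all genes was 23.8% higher and 25.9% lower, with a median of -0.02. At day 28, 11 mitotic genes were called higher and 0 lower (median 0.20), and 10 replication genes were called higher and 1 lower (median 0.15), beside 19.8% higher and 21.2% lower over all genes, with a median of -0.01. The 7 and 8 lower replication genes of days 1 and 14 are not far above what the background gives, whereas the mitotic count was one-sided on all 3 days. The 2 mitotic genes not called at day 14 were Birc5 and Foxm1. With library totals alone, 38.3% in place of 48.4% of all called genes were higher at day 1 and 32.9% in place of 48.4% at day 28.

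The day 14 count of mitotic genes was 17 in every fit that left out 1 library. At day 28 the 1 lower replication gene became 3 without WT day 28 replicate 2 and 3 with library totals alone. The mitotic count of 11 on that day became 7 without KO day 28 replicate 2, 5 with library totals alone and 4 when the 4 day 28 libraries were fitted alone. The 7 lower replication genes at day 1 became 2 without KO day 1 replicate 1, 4 without KO day 1 replicate 2 and 2 without WT day 1 replicate 1, and the 8 at day 14 became 5 without KO day 14 replicate 1 or without WT day 14 replicate 1. At day 14, though not at days 1 and 28, the summed osteoblast markers were higher in KO cells, as the mitotic genes were. The summed level of the 8 osteoblast markers, carried by the collagen genes Col1a1 and Col1a2, was 36900 to 37100 CPM in KO and 20900 to 22000 CPM in WT libraries at day 14, 14700 to 14800 and 14500 to 15000 CPM at day 1, and 6400 to 8950 and 7830 to 10900 CPM at day 28. The list went both ways: at day 14, Runx2, Sp7, Col1a1, Col1a2 and Alpl were called higher in KO cells (0.47 to 1.31) and Bglap (-0.90), Ibsp (-0.56) and Spp1 (-0.81) lower. At days 1 and 28 alike, 1 of the 8 was called higher and 3 lower. Over all genes, 19.5%, 23.8% and 19.8% were called higher and 20.8%, 25.9% and 21.2% lower at days 1, 14 and 28. A list of 8 genes is too small to be read against these shares. The part of these markers in the result was not tested.

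**Figure D2:**
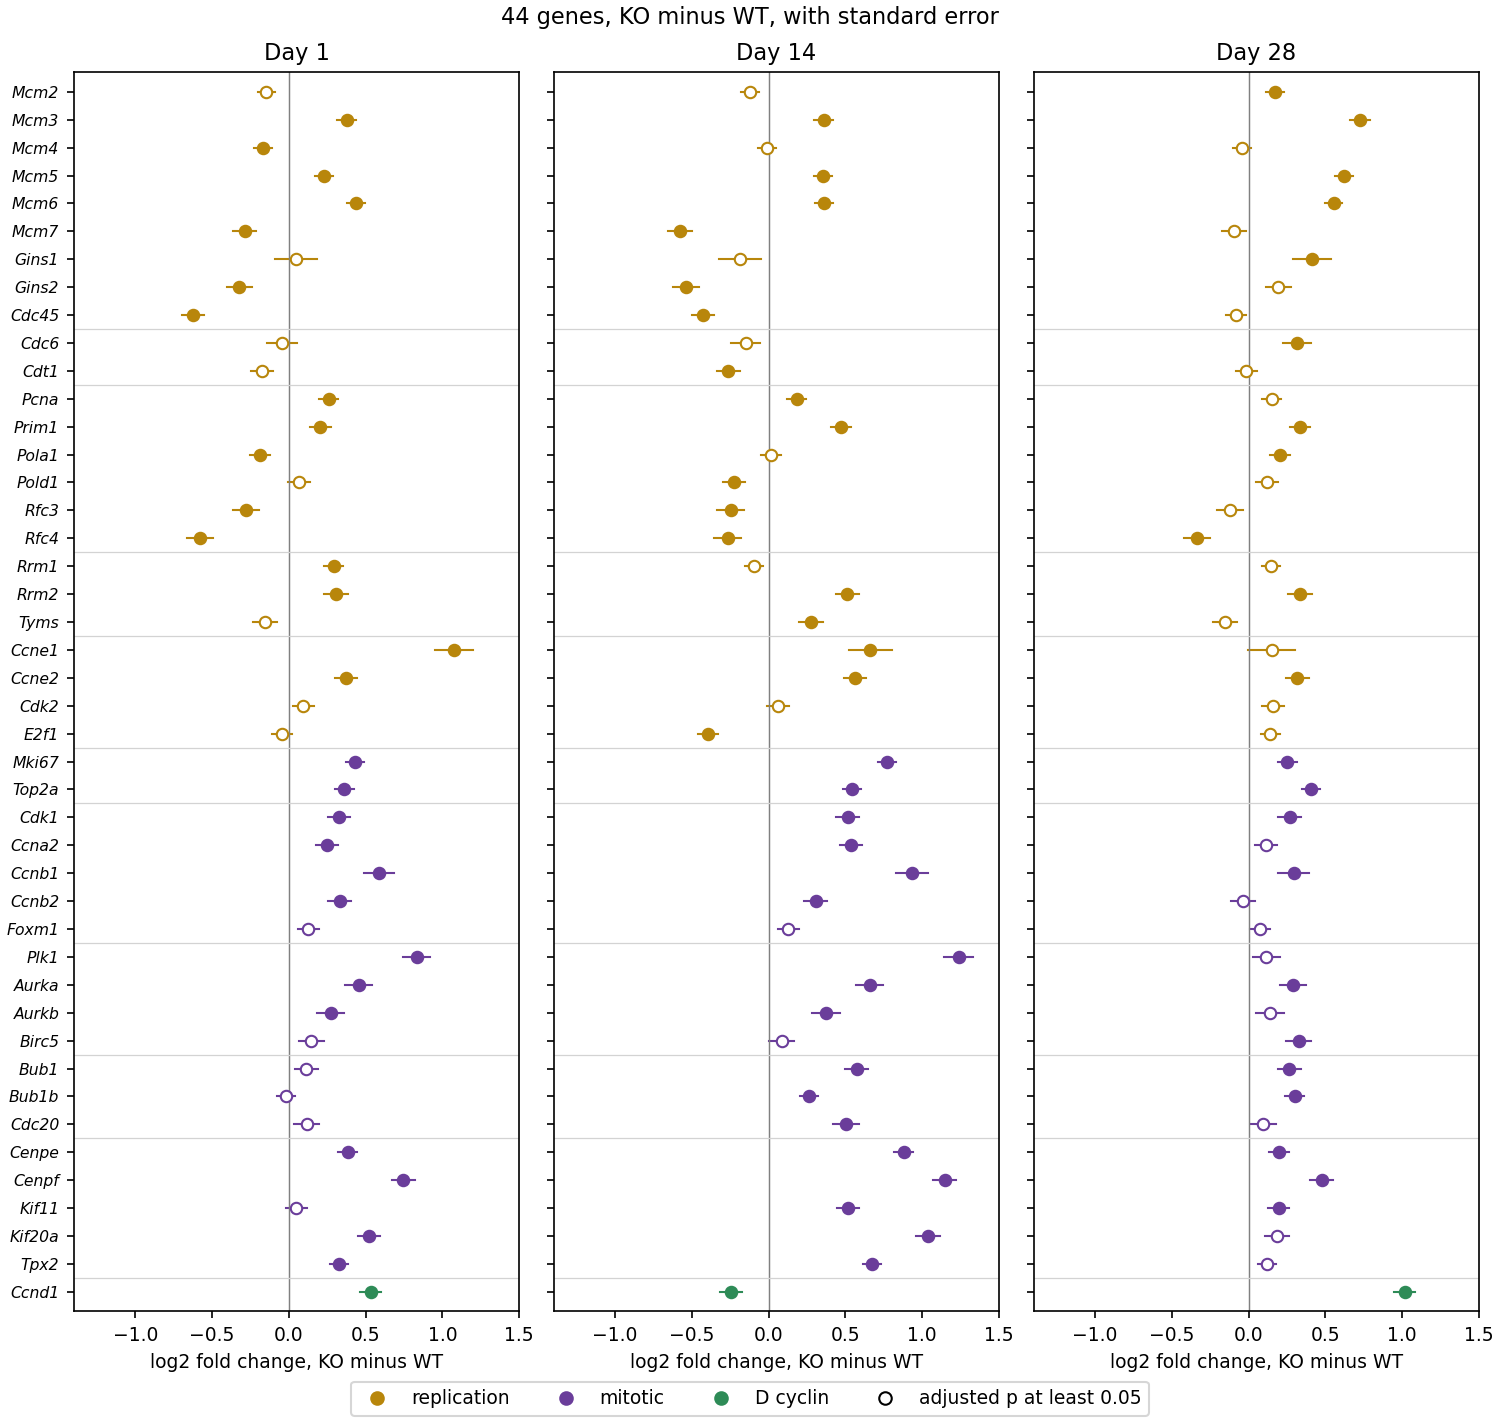
Log2 fold change, KO minus WT, of the 44 genes at days 1, 14 and 28 with its standard error, grouped by role from helicase (top) to cyclin D1 (bottom); open circles have an adjusted p of at least 0.05. At day 14 the mitotic genes lie right of 0, from 0.08 for Birc5 to 1.24 for Plk1, while the replication genes run from -0.58 for Mcm7 to 0.66 for Ccne1.

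The promoters of the classes are shown as background. The classes are defined by function, and E2F and CHR elements are known from genes of these kinds. A difference in motifs was therefore likely whatever the KO cells did. Whether a motif goes with the KO fold change was not tested. RefSeq promoter windows (build GRCm38.p6, 250 bases before to 50 after a gene's start) were at hand for 34 of the 44 genes, 20 replication and 14 mitotic ones. They were searched on both strands for E2F sites (TTTGGCGC, TTTCGCGC, TTTCCCGC or TTTGCCGC), for CHR elements (TTTGAA or TTCGAA) and for CCAAT. Of the mitotic genes with a CHR match, 3 are shown, Plk1 at chr7:122159185-122159484 (plus strand), Cenpf at chr1:189688037-189688336 (minus strand) and Cdc20 at chr4:118437294-118437593 (minus strand), and of the replication genes with an E2F match Mcm3 at chr1:20820263-20820562, Mcm6 at chr1:128359656-128359955 and Mcm7 at chr5:138171834-138172133 (all minus strand), read 5′ to 3′ along the gene, with CHR and E2F matches of either strand in capitals:
Plk1: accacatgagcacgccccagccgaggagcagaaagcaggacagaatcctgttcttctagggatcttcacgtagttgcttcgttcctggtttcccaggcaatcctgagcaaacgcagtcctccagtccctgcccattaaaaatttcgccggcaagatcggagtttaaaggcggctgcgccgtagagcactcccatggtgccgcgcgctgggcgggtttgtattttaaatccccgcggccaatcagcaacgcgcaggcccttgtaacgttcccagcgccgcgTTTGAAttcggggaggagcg
Cenpf: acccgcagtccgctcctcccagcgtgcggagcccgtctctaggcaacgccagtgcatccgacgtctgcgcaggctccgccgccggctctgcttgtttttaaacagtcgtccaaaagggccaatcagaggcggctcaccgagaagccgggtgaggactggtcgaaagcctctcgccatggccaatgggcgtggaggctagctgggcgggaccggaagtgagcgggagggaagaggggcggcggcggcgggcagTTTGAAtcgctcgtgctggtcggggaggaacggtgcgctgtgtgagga
Cdc20: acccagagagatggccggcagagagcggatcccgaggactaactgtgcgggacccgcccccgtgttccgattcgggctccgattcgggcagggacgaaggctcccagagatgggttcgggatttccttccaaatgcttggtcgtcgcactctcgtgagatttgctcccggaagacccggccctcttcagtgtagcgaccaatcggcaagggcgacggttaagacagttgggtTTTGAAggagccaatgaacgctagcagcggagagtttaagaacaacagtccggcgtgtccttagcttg
Mcm3: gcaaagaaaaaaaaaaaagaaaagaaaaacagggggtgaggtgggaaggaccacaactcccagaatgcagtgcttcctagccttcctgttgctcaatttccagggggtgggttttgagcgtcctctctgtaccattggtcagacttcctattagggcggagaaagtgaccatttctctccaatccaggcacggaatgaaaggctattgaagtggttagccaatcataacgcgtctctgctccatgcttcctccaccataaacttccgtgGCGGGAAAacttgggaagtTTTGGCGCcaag
Mcm6: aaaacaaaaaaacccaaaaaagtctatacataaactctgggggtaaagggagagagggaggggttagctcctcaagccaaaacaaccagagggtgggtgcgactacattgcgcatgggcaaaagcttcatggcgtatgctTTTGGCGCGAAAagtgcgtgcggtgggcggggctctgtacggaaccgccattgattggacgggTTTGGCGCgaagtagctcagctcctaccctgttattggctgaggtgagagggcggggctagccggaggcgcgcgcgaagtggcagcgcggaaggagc
Mcm7: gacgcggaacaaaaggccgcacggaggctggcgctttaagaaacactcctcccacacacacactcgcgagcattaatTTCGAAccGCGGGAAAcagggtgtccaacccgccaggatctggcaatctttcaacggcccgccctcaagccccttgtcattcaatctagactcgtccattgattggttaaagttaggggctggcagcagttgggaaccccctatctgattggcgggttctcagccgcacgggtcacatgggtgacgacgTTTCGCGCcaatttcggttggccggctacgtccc

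In these windows Plk1, Cenpf and Cdc20 hold 1 CHR match each, at bases 281 to 286, 253 to 258 and 233 to 238 of the window, and no E2F match. Mcm3 holds E2F matches at bases 270 to 277 and 289 to 296. In Mcm6 there are 3, of which those at bases 141 to 148 and 145 to 152 overlap, and Mcm7 holds 2 E2F matches, at bases 86 to 93 and 267 to 274, and a CHR match at bases 78 to 83. Mcm3 and Mcm6, which were higher in KO cells, and Mcm7, which was lower, therefore all carry E2F letters.

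A CHR match was found in 11 of 14 mitotic windows (78.6%), 4 of 20 replication windows (20%) and 19.5% of the 27025 windows of all genes. The 3 mitotic windows without one were those of Birc5, Ccnb1 and Cenpe. Their log2 fold changes at day 14 were 0.08, the lowest of the 19 mitotic genes, 0.93 and 0.88. An E2F match was found in 10 of 20 replication windows (50%), in 1 of 14 mitotic windows (7.1%, that of Cdk1) and in 2.3% of all windows, and CCAAT in 13 of 14 mitotic windows (92.9%), 13 of 20 replication windows (65.0%) and 38.0% of all windows. In 1 member window matches to different motifs overlapped. A match is a run of letters in the window, not a measured binding site.

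**Figure D3:**
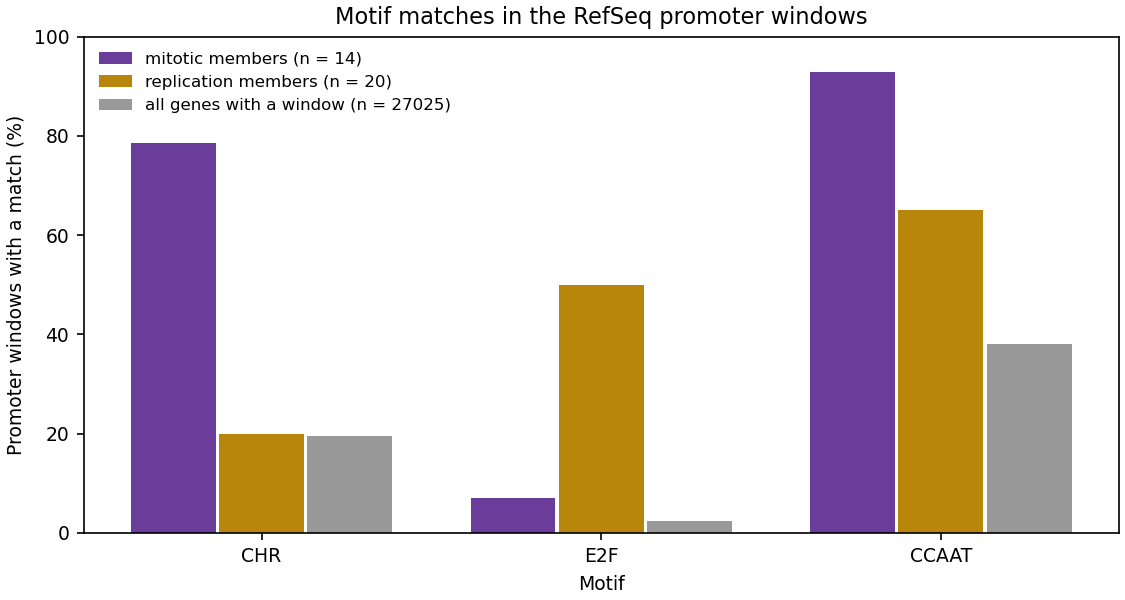
Percentage of RefSeq promoter windows of 300 bases with at least 1 match to each motif, for mitotic genes (n = 14), replication genes (n = 20) and all genes with a window (n = 27025). CHR matches are in 78.6% of mitotic and 20% of replication windows, and E2F matches in 7.1% of mitotic and 50% of replication windows.

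Among the mitotic genes, the kinase genes held the highest fold change of all 44 genes at day 14. Plk1 (GENCODE ENSMUSG00000030867.7, chr7:122159439-122169873, GRCm38, plus strand) encodes polo-like kinase 1, which drives mitotic entry and spindle formation. It had 46.7 and 45.5 CPM in KO cells at day 1, 55.3 and 57.4 CPM at day 14 and 28.6 and 32.1 CPM at day 28, against 25.8 and 25.99, 23.7 and 24.2, and 27.9 and 28.3 CPM in WT cells on the same days. All 4 KO libraries of days 1 and 14 lay above every WT library, and the KO libraries of day 28 lay just above the WT range. The log2 fold change was 0.83 ± 0.09 at day 1 (SE, edgeR adjusted p = 1.47e-07) and 1.24 ± 0.09 at day 14 (edgeR adjusted p = 5.17e-10), or 2.36-fold. At day 28 it was 0.12 ± 0.09 and not called (edgeR adjusted p = 0.325).

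Aurka, which encodes the spindle pole kinase Aurora A, had 68.6 and 69.7 CPM in KO cells at day 1, 94.8 and 95.5 CPM at day 14 and 72.2 and 87.2 CPM at day 28, against 52.3 and 48.5, 60.9 and 59.7, and 60.99 and 70.1 CPM in WT cells on the same days. Its KO libraries were above the WT libraries of the same day throughout, with log2 fold changes of 0.46, 0.66 and 0.29, all called. The day 28 call ended without KO day 28 replicate 2 (edgeR adjusted p = 0.266) or WT day 28 replicate 1 (0.0957). Aurkb, the kinase of the chromosomal passenger complex, was called higher at day 1 (0.27) and day 14 (0.37) and had 0.14 at day 28 (edgeR adjusted p = 0.227). Without KO day 1 replicate 1 its day 1 value had an edgeR adjusted p of 0.117, without KO day 1 replicate 2 of 0.0556 and without WT day 1 replicate 2 of 0.296. Birc5 encodes survivin of the same complex. Its log2 fold changes were 0.15 and 0.08, not called (edgeR adjusted p = 0.155 and 0.409), and 0.33 at day 28, called. It had 98.8 and 99.4 CPM in KO cells at day 1, 132 and 142 CPM at day 14 and 95.6 and 101 CPM at day 28, against 94.3 and 84.6, 126 and 133, and 85.6 and 70.9 CPM in WT cells on the same days, so both lines were high at day 14.

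Of the 5 genes of the kinetochore, motors and spindle, 4 were called higher in KO cells at day 1, 5 at day 14 and 3 at day 28. Over all genes, 19.5%, 23.8% and 19.8% were called higher on these days. Cenpf (ENSMUSG00000026605.14, chr1:189640606-189688086, minus strand) encodes a large kinetochore protein that accumulates in G2. It had 943 and 947 CPM in KO cells at day 1, 1149 and 1154 CPM at day 14 and 572 and 679 CPM at day 28, against 577 and 550, 495 and 546, and 462 and 438 CPM in WT cells on the same days. Every KO library of days 1 and 14 was above every WT library, and at day 28 the KO libraries differed from each other more than the WT libraries did. Its log2 fold change was 0.75 ± 0.07 at day 1, 1.15 ± 0.07 at day 14 (edgeR adjusted p = 6.3e-11, 2.21-fold) and 0.48 ± 0.07 at day 28 (edgeR adjusted p = 2.49e-05).

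Cenpe, a kinesin that moves chromosomes to the spindle equator, had 518 and 528 CPM in KO cells against 282 and 286 CPM in WT cells at day 14, where the groups were far apart (0.88 ± 0.06, edgeR adjusted p = 3.07e-10). At days 1 and 28 its log2 fold changes were 0.38 and 0.20, both called, the day 28 one not without KO day 28 replicate 2 (edgeR adjusted p = 0.151). Kif20a, a kinesin of the central spindle in cytokinesis, reached 125 and 130 CPM in KO against 62.8 and 61.2 CPM in WT cells at day 14 (1.04 ± 0.08, 2.05-fold, edgeR adjusted p = 4.58e-10). It was called higher at day 1 too (0.52), but not at day 28 (0.18, edgeR adjusted p = 0.0614). Tpx2, which brings Aurora A to the spindle, followed the same order with 0.32, 0.67 and 0.12, the last not called (edgeR adjusted p = 0.121). Kif11, the kinesin that pushes spindle poles apart, was the member of this group that was not called at day 1 (0.05, edgeR adjusted p = 0.625). It had 0.52 at day 14 and 0.20 at day 28, both called, the day 28 one not without KO day 28 replicate 2 (edgeR adjusted p = 0.216) or WT day 28 replicate 1 (0.24).

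Cdk1 and its cyclins form the kinase that starts mitosis. Ccnb1, the gene of cyclin B1, had 61.3 and 66.6 CPM in KO cells at day 1, 75.4 and 79.98 CPM at day 14 and 47.3 and 60.03 CPM at day 28, against 42.8 and 42.5, 41.9 and 39.3, and 40.8 and 47.5 CPM in WT cells on the same days. The KO libraries of days 1 and 14 were above every WT library, and at day 28 the lower KO library came within the reach of the WT libraries. Log2 fold changes were 0.59 ± 0.10, 0.93 ± 0.10 and 0.29 ± 0.10 (edgeR adjusted p = 6.35e-05, 1.8e-07 and 0.0233), and the last call ended without KO day 28 replicate 2 (edgeR adjusted p = 0.491) or WT day 28 replicate 1 (0.172). Cdk1 was called higher on all 3 days (0.33, 0.51 and 0.27). Ccna2, the cyclin of S phase and early mitosis, was called at day 1 (0.25) and day 14 (0.54) and had 0.11 at day 28 (edgeR adjusted p = 0.228), and Ccnb2, a second B cyclin, had 0.33, 0.30 and, not called, -0.03 (edgeR adjusted p = 0.752). The day 1 call of Ccna2 ended without KO day 1 replicate 1 (edgeR adjusted p = 0.101) or WT day 1 replicate 2 (0.136). Foxm1, the transcription factor of many G2/M genes, had 130 and 139, 154 and 164 and 164 and 172 CPM in KO cells at days 1, 14 and 28, against 122 and 124, 153 and 138 and 161 and 159 CPM in WT cells. Its fold changes of 0.13, 0.13 and 0.07 were not called (edgeR adjusted p = 0.139, 0.131 and 0.405).

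Mki67, the gene of the proliferation antigen Ki-67, which coats mitotic chromosomes, had 1046 and 1043 CPM in KO cells at day 1, 1209 and 1235 CPM at day 14 and 787 and 787 CPM at day 28, against 762 and 788, 733 and 698, and 681 and 641 CPM in WT cells on the same days. It was higher in KO cells on all 3 days, by 0.43 ± 0.06, 0.77 ± 0.06 and 0.25 ± 0.06 (edgeR adjusted p = 6.04e-06, 9.96e-10 and 0.00186), and the KO and WT libraries of a day did not overlap. Top2a, the topoisomerase that untangles sister chromatids, was also called on each day (0.36, 0.54 and 0.41). The checkpoint genes were not called at day 1. Bub1 and Bub1b, kinase and kinase-like members of the spindle checkpoint, and Cdc20, the activator of the anaphase-promoting complex, had 0.11, -0.02 and 0.12 at day 1 (edgeR adjusted p = 0.231, 0.839 and 0.276). At day 14 all 3 were called higher, with 0.57, 0.26 and 0.50. The change of the KO minus WT difference between the days was itself called for each. That of Bub1b ended without any 1 of the 8 libraries of these days (edgeR adjusted p up to 0.151) and that of Cdc20 in 7 of the 8 such fits (up to 0.117). At day 28 Bub1b had 223 and 227 CPM in KO cells, against 180 and 186 CPM in WT cells (0.30, edgeR adjusted p = 0.000381).

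**Figure D4:**
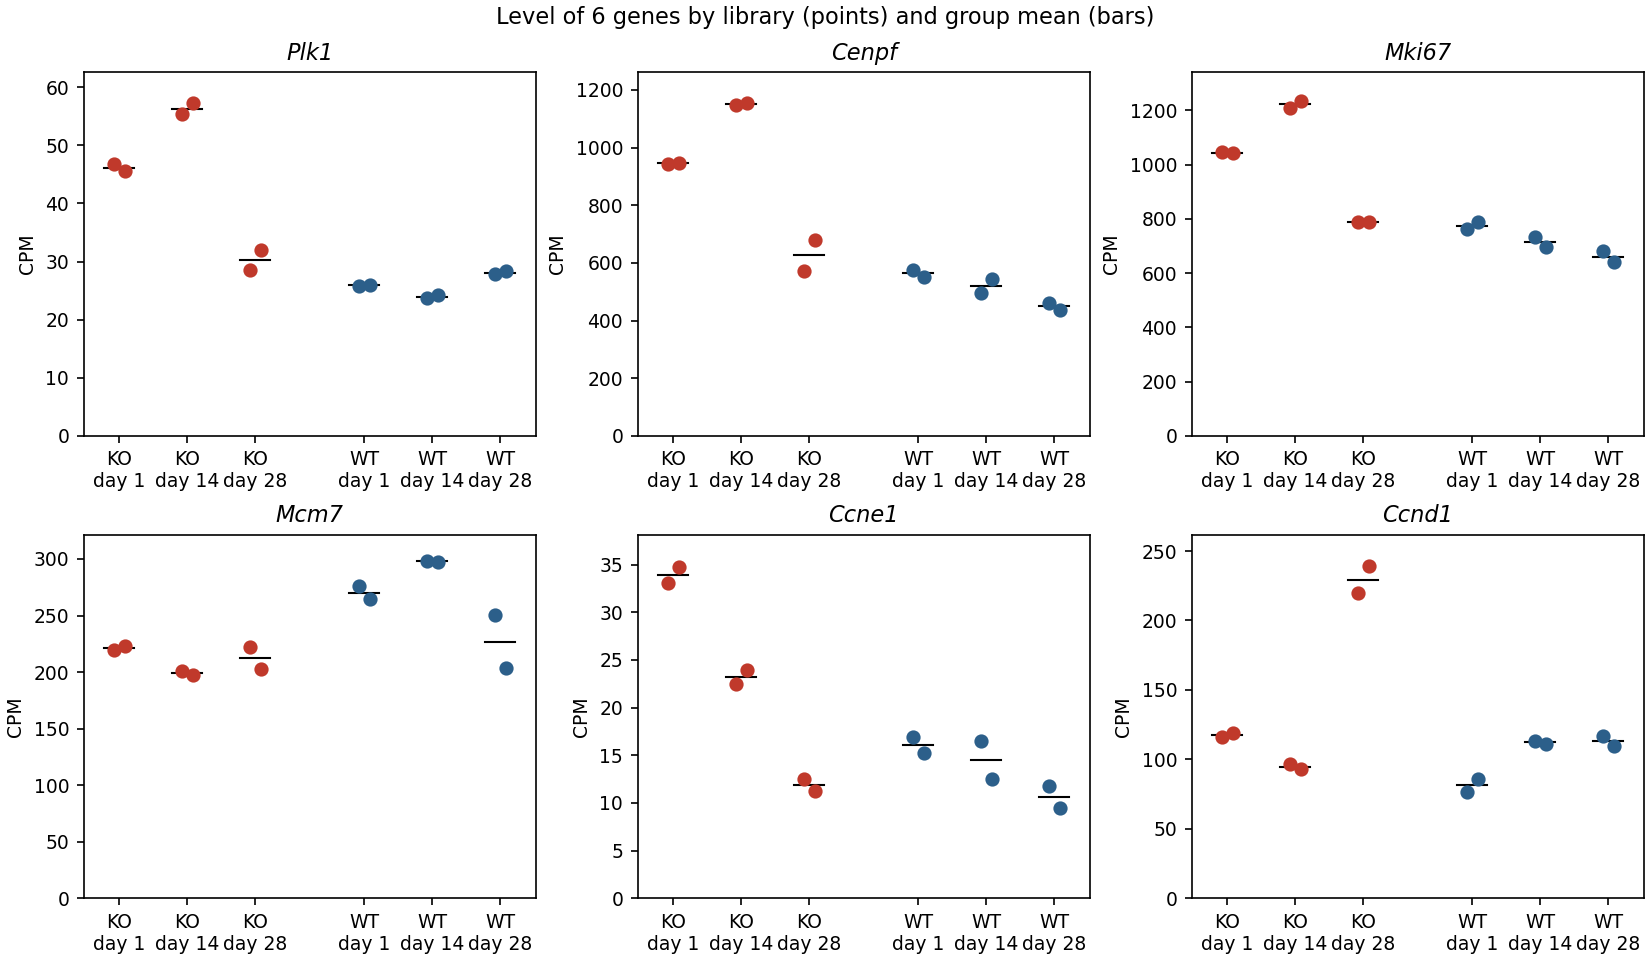
CPM of Plk1, Cenpf, Mki67, Mcm7, Ccne1 and Ccnd1 in each library (points) with the group mean (bars), KO groups left of WT groups, on linear axes from 0. Plk1 is at 55.3 and 57.4 CPM in KO day 14 and between 23.7 and 28.3 CPM in the WT libraries, Mcm7 is lowest in KO day 14 among the means, and Ccnd1 is at 220 and 239 CPM in KO day 28.

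The helicase genes had no common direction at days 1 and 14. Of 9 genes for the Mcm ring, GINS and Cdc45, 3 were called higher and 4 lower in KO cells at day 1, 3 higher and 3 lower at day 14, and 5 higher and 0 lower at day 28, beside 19.5%, 23.8% and 19.8% higher and 20.8%, 25.9% and 21.2% lower over all genes. A group of 9 genes is too small to be read against these shares, and the genes named next are single values. The Mcm2-7 ring is a hexamer with 1 copy of each subunit. Mcm3 (ENSMUSG00000041859.10, chr1:20802968-20820312, minus strand) had 639 and 637 CPM in KO cells at day 1, 729 and 721 CPM at day 14 and 838 and 882 CPM at day 28, against 503 and 479, 560 and 571, and 496 and 545 CPM in WT cells on the same days. Mcm6 (ENSMUSG00000026355.11, chr1:128331590-128359664, minus strand) had 833 and 831 CPM in KO cells at day 1, 911 and 913 CPM at day 14 and 982 and 1021 CPM at day 28, against 622 and 607, 705 and 715, and 681 and 683 CPM in WT cells on the same days. In both, every KO library was above every WT library.

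The log2 fold changes of Mcm3 were 0.38 ± 0.06, 0.36 ± 0.06 and 0.73 ± 0.06 (edgeR adjusted p = 5.17e-05, 6.22e-05 and 1.01e-08), those of Mcm6 0.44, 0.36 and 0.55, and those of Mcm5 0.23, 0.35 and 0.62, all called. The day 1 call of Mcm5 ended without KO day 1 replicate 2 (edgeR adjusted p = 0.0582) or WT day 1 replicate 2 (0.0594). Mcm7 went the other way. Mcm7 (ENSMUSG00000029730.16, chr5:138164583-138172422, minus strand) had 220 and 223 CPM in KO cells at day 1, 201 and 198 CPM at day 14 and 222 and 203 CPM at day 28, against 276 and 265, 298 and 298, and 251 and 203 CPM in WT cells on the same days. The KO libraries were below the WT libraries at days 1 and 14 and overlapped with them at day 28. Its log2 fold change was -0.29 ± 0.08 at day 1 (edgeR adjusted p = 0.00488), -0.58 ± 0.08 at day 14 (edgeR adjusted p = 2.83e-06, 0.669-fold) and -0.10 ± 0.08 at day 28 (edgeR adjusted p = 0.338). The day 1 call of Mcm7 ended without KO day 1 replicate 1 (edgeR adjusted p = 0.054) or WT day 1 replicate 1 (0.0546).

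Mcm2 and Mcm4, the remaining ring subunits, had smaller fold changes. Mcm2 had -0.15 and -0.12, not called (edgeR adjusted p = 0.0503 and 0.0917), and 0.17 at day 28, called, but not without KO day 28 replicate 1 (edgeR adjusted p = 0.0686) or WT day 28 replicate 1 (0.0749). Mcm4 had -0.17 at day 1, called in the fit of all libraries but in none of the fits without 1 of the day 1 libraries (edgeR adjusted p = 0.104, 0.196, 0.0723 and 0.147 without KO replicates 1 and 2 and WT replicates 1 and 2) and lost as well without either KO day 14 library (0.0578 and 0.0573). At days 14 and 28 it had -0.01 and -0.04 (edgeR adjusted p = 0.878 and 0.595). Per kilobase of annotated exon, Mcm6 averaged 178, 195 and 215 CPM per kb in KO cells at days 1, 14 and 28, against 132, 152 and 146 in WT cells. Mcm7 averaged 50, 45.1 and 48.0 against 61.1, 67.3 and 51.3. This length joins the exons of all annotated transcripts of a gene and can exceed the transcript in use. Levels of different genes therefore compare only roughly. The processed pseudogene Gm5487 is 97.7% identical to Mcm7 over 2157 nt, so the Mcm7 count is uncertain to the extent that reads were shared.

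Cdc45 and the GINS gene Gins2, which complete the helicase, shared the direction of Mcm7. Cdc45 had 43.3 and 42.01 CPM in KO cells at day 1, 63.6 and 67.1 CPM at day 14 and 97.2 and 96.8 CPM at day 28, against 64.4 and 67, 88.4 and 87.6, and 98.5 and 107 CPM in WT cells on the same days. The KO libraries lay below the WT libraries of the same day on all 3 days, by a wide margin at day 1 and a narrow one at day 28, while both lines climbed over the days. Log2 fold changes were -0.62 ± 0.07, -0.43 ± 0.07 and -0.08 ± 0.07 (edgeR adjusted p = 8.12e-07, 4.32e-05 and 0.35), so that day 28 was not called. Gins2 had -0.32 and -0.54, called, and 0.19 at day 28, not called (edgeR adjusted p = 0.0703). At day 1 the Gins2 call ended without KO day 1 replicate 1 (edgeR adjusted p = 0.0707) or WT day 1 replicate 1 (0.124), and 67.3% of its exon length lies opposite exons of Gse1, a gene whose reads cannot be told apart from it without strand. Gins1 was called at day 28 alone (0.41), with 33.7 and 35.9 CPM in KO against 21.9 and 30.8 CPM in WT cells, and not without KO day 28 replicate 2 (edgeR adjusted p = 0.0773) or WT day 28 replicate 1 (0.243).

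The licensing genes were not called at day 1. Cdc6 had 57.2 and 50.4 CPM in KO cells at day 1, 94.95 and 81.8 CPM at day 14 and 117 and 103 CPM at day 28, against 58.1 and 52.6, 99.1 and 96.6, and 95.3 and 80.99 CPM in WT cells on the same days. In both lines it was lowest at day 1, and the KO and WT libraries overlapped there. Its log2 fold changes were -0.05, -0.15 and 0.31, of which the last was called (edgeR adjusted p = 0.753, 0.198 and 0.00844), though not without KO day 28 replicate 1 (0.107) or WT day 28 replicate 2 (0.0567). Cdt1, its partner in loading, was called lower at day 14 (-0.26), but not without KO day 14 replicate 2 (edgeR adjusted p = 0.0981), and had -0.18 and -0.01 on the other days (edgeR adjusted p = 0.0554 and 0.891).

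Single clamp loader and polymerase genes were called in either direction. Rfc4 and Rfc3, subunits of the clamp loader, were the lower ones: Rfc4 had 29.8 and 29.9 CPM in KO against 42.6 and 46.7 CPM in WT cells at day 1. Its log2 fold changes were -0.58, -0.27 and -0.33 (edgeR adjusted p = 1.76e-05, 0.016 and 0.00299), and it was the 1 member called lower at day 28. Leaving out KO day 14 replicate 1 or WT day 14 replicate 1 ended its day 14 call (edgeR adjusted p = 0.172 and 0.152). Rfc3 had -0.28 and -0.25, called, and -0.12, not called (edgeR adjusted p = 0.266). Its day 1 call ended without KO replicate 1 or 2 or WT replicate 1 of day 1 (edgeR adjusted p = 0.0762, 0.0724 and 0.0749), and its day 14 call without KO or WT replicate 1 of day 14 (0.208 and 0.251).

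Prim1, the catalytic subunit of primase, was higher in KO cells on all 3 days (0.21, 0.47 and 0.33), with 196 and 195 CPM in KO against 147 and 134 CPM in WT cells at day 14. Its day 1 call did not hold without any 1 of the 4 day 1 libraries (edgeR adjusted p = 0.0584 to 0.0987). Pcna, the sliding clamp, was called higher at day 1 (0.26) and at day 14 (0.18), and had 0.15 at day 28 (edgeR adjusted p = 0.0561); the day 14 call ended without KO day 14 replicate 1 or 2 or WT day 14 replicate 2 (edgeR adjusted p = 0.0641, 0.116 and 0.222). Pola1, the polymerase subunit that extends primers, had -0.19, 0.01 and 0.20 (edgeR adjusted p = 0.0254, 0.881 and 0.0151), and its day 1 call ended without KO day 1 replicate 1 or 2, KO day 14 replicate 1 or WT day 1 replicate 1 (0.104, 0.166, 0.0504 and 0.251) and its day 28 call without KO day 28 replicate 1 (0.1). Pold1, of polymerase delta, had 0.07, -0.23 and 0.12 (edgeR adjusted p = 0.497, 0.0139 and 0.204), the day 14 value not called without KO day 14 replicate 1 or 2 or WT day 14 replicate 1 (edgeR adjusted p = 0.0615, 0.0741 and 0.134).

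Of the 3 nucleotide supply genes, 2, 2 and 1 were called higher in KO cells at days 1, 14 and 28 and 0 lower. Over all genes, 19.5%, 23.8% and 19.8% were called higher and 20.8%, 25.9% and 21.2% lower. A group of 3 genes is too small to be read against these shares. Rrm2, the S phase subunit of ribonucleotide reductase, had 59.5 and 63.4, 88.8 and 89.3 and 67.5 and 62.5 CPM in KO cells at days 1, 14 and 28, against 48.4 and 50.9, 63.9 and 60.8 and 54.02 and 48.8 CPM in WT cells. The groups of a day did not overlap, and the log2 fold changes of 0.31, 0.51 and 0.33 were all called, the first not without KO day 1 replicate 2 (edgeR adjusted p = 0.0574). Rrm1, the large subunit, was called at day 1 alone (0.29, against -0.10 at day 14 and 0.15 at day 28, edgeR adjusted p = 0.000537, 0.2 and 0.0601). Tyms, thymidylate synthase, was called at day 14 alone (0.28), with -0.15 and -0.16 on the other days (edgeR adjusted p = 0.122 and 0.123), and not without KO or WT day 14 replicate 2 (edgeR adjusted p = 0.0831 and 0.0814).

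Cyclin E genes, which act with Cdk2 at S phase entry, were higher in KO cells. Ccne1 (ENSMUSG00000002068.16, chr7:38097984-38107534, minus strand) had 33.1 and 34.7 CPM in KO cells at day 1, 22.5 and 23.9 CPM at day 14 and 12.5 and 11.2 CPM at day 28, against 16.9 and 15.2, 16.4 and 12.5, and 11.8 and 9.41 CPM in WT cells on the same days. It was high in KO cells at day 1 and low in both lines at day 28, where the libraries overlapped. The log2 fold change was 1.08 ± 0.13 at day 1 (edgeR adjusted p = 6.65e-07, 2.11-fold), the highest of the 44 genes on that day, 0.66 ± 0.14 at day 14 (edgeR adjusted p = 0.000516) and 0.15 ± 0.15 at day 28 (edgeR adjusted p = 0.462). Ccne2 was called on all 3 days (0.37, 0.56 and 0.32). Cdk2 itself had 0.10, 0.06 and 0.16, none called (edgeR adjusted p = 0.295, 0.504 and 0.0772). E2f1, an activator of S phase genes, was called lower at day 14 alone: it had 133 and 138 CPM in KO against 183 and 174 CPM in WT cells (-0.40 ± 0.06, edgeR adjusted p = 3.1e-05). On the other days it had -0.04 and 0.14 (edgeR adjusted p = 0.633 and 0.0802).

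Ccnd1 followed neither class. It encodes cyclin D1, which with Cdk4 and Cdk6 carries growth signals into G1 (ENSMUSG00000070348.5, chr7:144929931-144939925, minus strand). It had 116 and 119 CPM in KO cells at day 1, 96.3 and 93.01 CPM at day 14 and 220 and 239 CPM at day 28, against 76.7 and 85.8, 113 and 111, and 117 and 110 CPM in WT cells on the same days. The KO libraries were above the WT libraries of the same day at day 1, below them at day 14 and far above them at day 28, when the mitotic genes had come down. Log2 fold changes were 0.53 ± 0.07 (edgeR adjusted p = 4e-06), -0.25 ± 0.07 (edgeR adjusted p = 0.0076) and 1.02 ± 0.07 (edgeR adjusted p = 2.75e-10, 2.02-fold). The day 14 call ended without KO day 14 replicate 2 (edgeR adjusted p = 0.073) or WT day 14 replicate 1 (0.0581).

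Over time, the mitotic genes of KO cells went up to day 14 and down again by day 28, and fewer of those of WT cells were called. In KO cells at day 14 against day 1, 17 of 19 mitotic genes were called higher and 0 lower (median 0.34), and 10 replication genes were called higher and 2 lower (median 0.12), beside 19.4% higher and 18.0% lower over all genes. In WT cells over the same days, 5 mitotic genes were called higher and 1 lower (median 0.09), and 11 replication genes higher and 1 lower (median 0.16), beside 18.2% and 15.9% over all genes. Among the mitotic genes of KO cells, Bub1 (0.67), Kif11 and Cdc20 (both 0.48) and Birc5 (0.47) led the rise from day 1, and in WT cells Birc5 did (0.53). Cdc6 was the leading replication gene in both lines, with 0.72 in KO and 0.82 in WT cells. The WT count of 19 called members over these days was 10 without WT day 1 replicate 2 and 11 without WT day 14 replicate 1, the higher replication genes 5 and 7 and the higher mitotic genes 2 in either. Both single lower calls of WT cells ended without WT day 1 replicate 1 or WT day 14 replicate 2. With library totals alone, 41.1% in place of 53.3% of all called genes were higher in this comparison.

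At day 28 against day 14, 16 of the 19 mitotic genes of KO cells were called lower and 0 higher (median -0.48), beside 25.6% higher and 25.1% lower over all genes. These comparisons use the KO day 14 libraries again, so they are no independent view of the day 14 values. Plk1 fell by 0.89 on the log2 scale (edgeR adjusted p = 2.18e-08), Kif20a by 0.89 (edgeR adjusted p = 2.2e-09), Cenpf by 0.88 (edgeR adjusted p = 2.31e-09) and Cenpe by 0.84 (edgeR adjusted p = 3.55e-10). The 3 that were not called were Foxm1 (0.08), Bub1b (0.08) and Cdc20 (-0.17, edgeR adjusted p = 0.312, 0.248 and 0.0886). In WT cells, 5 mitotic genes were called lower and 1, Cdc20, higher (median -0.07), beside 17.9% higher and 16.8% lower over all genes, and the leading fall was that of Birc5 (-0.72). Plk1 had 0.23 there (edgeR adjusted p = 0.0693).

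Replication genes did not share this fall. In KO cells at day 28 against day 14, 8 of 24 were called higher and 6 lower (median 0.08). Over all genes, 25.6% were called higher and 25.1% lower, so these counts are not far from the background. The genes named next are single values. Called higher were Gins1 (0.73), Cdc45 (0.57), Cdt1 (0.48), E2f1 (0.47), Mcm2 (0.42), Cdc6 (0.31), Mcm3 (0.25) and Rrm1 (0.16). The lower ones were Ccne1 (-0.97), Ccne2 (-0.62), Tyms (-0.51), Rrm2 (-0.46), Prim1 (-0.20) and the helicase gene Mcm4 (-0.20). Of these calls, that of Cdc6 ended without KO day 28 replicate 1 or KO day 14 replicate 2 (edgeR adjusted p = 0.0986 and 0.151), that of Rrm1 without either KO day 14 library or KO day 28 replicate 2 (0.102 to 0.132), that of Prim1 without either KO day 14 library or KO day 28 replicate 1 (0.0699 to 0.173) and that of Mcm4 without KO day 14 replicate 1 or KO day 28 replicate 2 (0.0718 and 0.0741). In WT cells 3 replication genes were called higher and 9 lower (median -0.10), beside 17.9% higher and 16.8% lower over all genes. Gins2 (-0.58), Ccne1 (-0.46), Pold1 (-0.40) and Mcm7 (-0.39) were at the low end. The WT count of 18 called members was 9 without WT day 14 replicate 1, 11 without replicate 2 and 8 when the 4 WT libraries of these days were fitted alone. The 3 higher replication genes became 1 without WT day 14 replicate 1, 0 without WT day 14 replicate 2 or WT day 28 replicate 2 and 5 without WT day 28 replicate 1. The 5 lower mitotic genes became 2 without WT day 14 replicate 1 and 3 without WT day 14 replicate 2, WT day 28 replicate 2 or KO day 1 replicate 2. The call of Cdc20 ended without either WT day 14 library.

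Between day 28 and day 1, more KO replication genes were called higher than lower and the KO mitotic genes were divided. There were 13 replication genes called higher and 4 lower (median 0.23) and 5 mitotic genes called higher and 8 lower (median -0.07), beside 28.2% higher and 27.4% lower over all genes. The 5 higher mitotic genes became 2 without KO day 28 replicate 2, where Top2a, Aurka and Cdc20 were lost. They became 3 without either KO day 1 library. The 4 lower replication genes became 2 without KO day 28 replicate 1 or either KO day 1 library. Cdc45 had 1.19 and Cdc6 1.03, the highest of the 44, and Ccne1 -1.52, the lowest. In WT cells 9 replication genes were called higher and 6 lower (median -0.04) and 4 mitotic genes higher and 4 lower (median 0.00), beside 24.6% and 23.4% over all genes. The 6 lower replication genes of WT cells became 2 without WT day 28 replicate 2, where Mcm5, Mcm7, Gins2 and Ccne2 were lost. They became 3 without WT day 1 replicate 1. Cdc6 (0.67), Cdc45 (0.64) and Ccne1 (-0.59) stood at the ends of the WT order too.

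**Figure D5:**
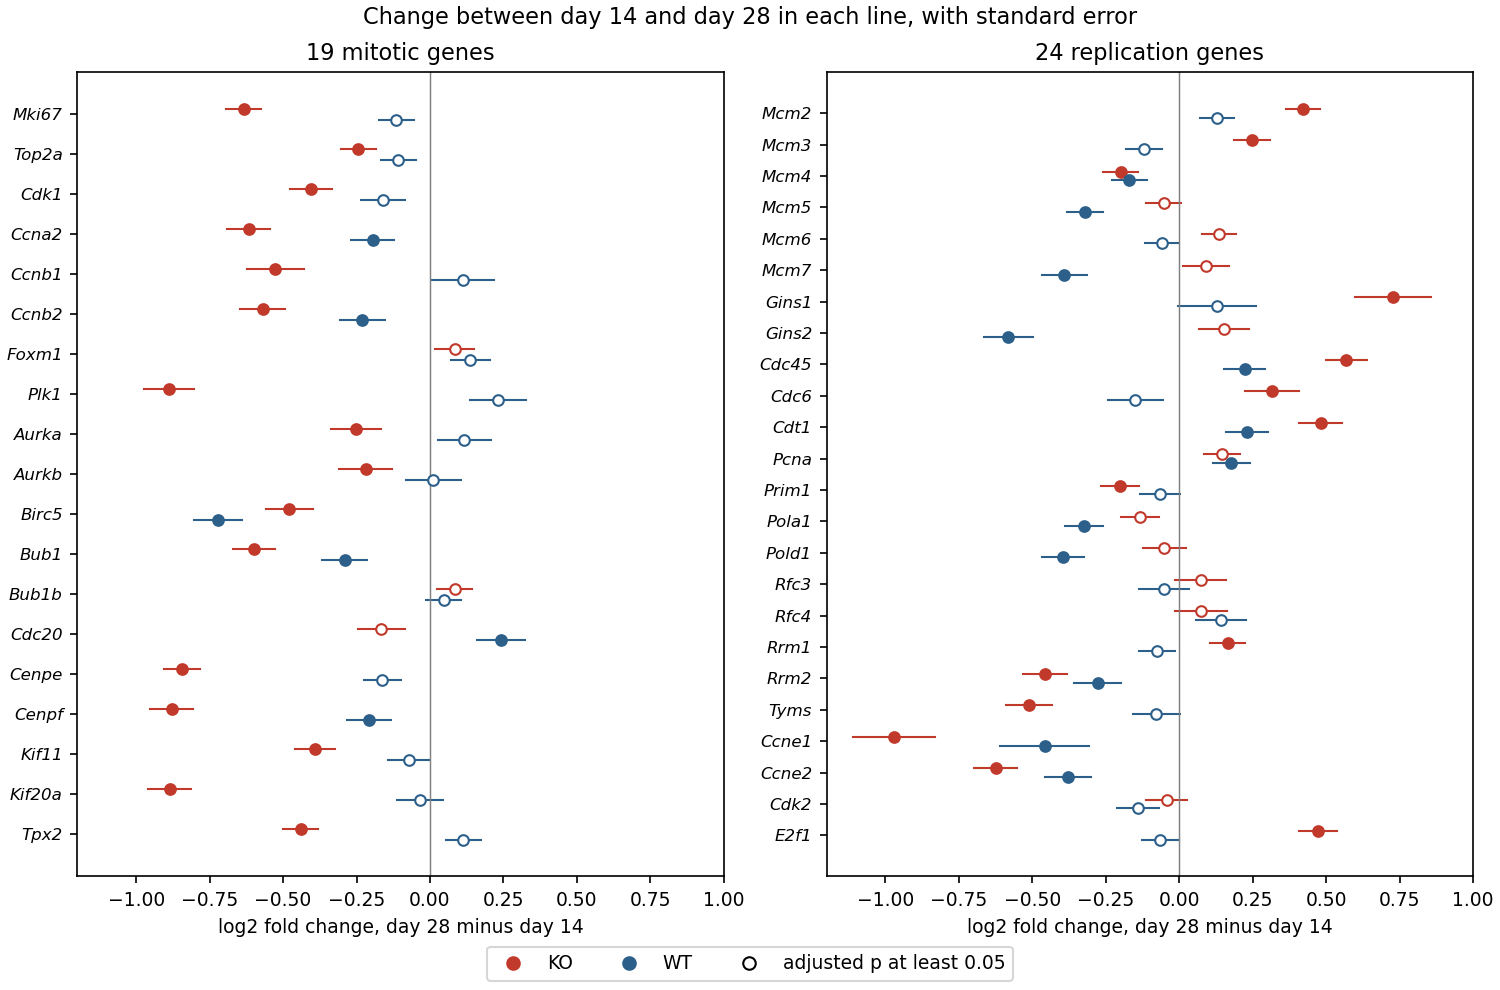
Log2 fold change with standard error at day 28 minus day 14 for the 19 mitotic genes (left) and the 24 replication genes (right), in KO and WT cells; open circles have an adjusted p of at least 0.05. The KO points of the mitotic genes lie mostly left of 0, down to -0.89 for Plk1 and Kif20a, while most WT points are closer to 0, with Birc5 at -0.72 as an exception.

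Some counts may hold reads of other genes, since the strand setting of the counting is not given in the sources used here. Exons of another gene on the opposite strand cover 29.3% of the exon length of Kif20a (Cdc23), 23.4% of that of Ccnd1 (LTO1), 17.4% of that of Ccne2 (Ints8), 12.7% of that of Rfc4 (Eif4a2), 12.5% of that of Ccna2 (Exosc9), 7.3% of that of Mcm7 (Ap4m1), 7.1% of that of Plk1 (Gm44985) and 6.0% of that of Cdc45 (Ufd1). Ccnb1 and Pcna have processed pseudogenes of high identity, Ccnb1-ps (99.2%) and Pcna-ps2 (99.2%), and Cdc6, Rrm2 and Mki67 have copies of 95.2%, 95.5% and 98.6% identity over 1528, 419 and 216 nt. A repeated stretch of Tyms is shared with genes such as Map3k2 and Reep3. The levels of these members are uncertain to that extent, and the part of shared reads was not tested.

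Whether the change over time differed between the lines was tested as an interaction, KO minus WT. For day 14 minus day 1, 10 of 19 mitotic genes had a higher change in KO cells and 0 a lower one (median 0.34), beside 9.19% higher and 9.65% lower over all genes. They were led by Kif20a (0.52, edgeR adjusted p = 0.00148), Cenpe (0.49, edgeR adjusted p = 0.000411) and Kif11 (0.47, edgeR adjusted p = 0.0017), and without WT day 14 replicate 1 the mitotic count was 6. Of the 24 replication genes, 1 had a higher change, Tyms (0.43), and 3 a lower one, Rrm1 (-0.39), E2f1 (-0.35) and Pold1 (-0.29), with a median of -0.03. The calls of Plk1, Bub1b and Pold1 ended without any 1 of the 8 libraries compared (edgeR adjusted p = 0.0683 to 0.11, 0.058 to 0.151 and 0.0608 to 0.187). That of Cdc20 ended without any of these but WT day 1 replicate 2 (0.0556 to 0.117) and with DESeq2 (0.0522). That of Tyms ended without KO day 1 replicate 2, KO day 14 replicate 2 or WT day 14 replicate 2 (0.0506 to 0.0654) and that of E2f1 without KO or WT day 14 replicate 1 (0.0505 and 0.0598). With the replicate number as a block, Pold1 was not called (edgeR adjusted p = 0.052). Fitted on the 8 libraries of days 1 and 14 alone, 24 in place of 15 of the 44 genes were called.

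For day 28 minus day 14 the medians of the classes had opposite signs. Of the mitotic genes, 13 had a lower change in KO than in WT cells and 0 a higher one (median -0.37), and of the replication genes 11 had a higher change and 1, Tyms, a lower one (median 0.22), beside 12.6% higher and 11.5% lower over all genes. Plk1 had -1.12 ± 0.13 (edgeR adjusted p = 1.46e-06), Kif20a -0.85 (edgeR adjusted p = 4.99e-06) and Cenpe -0.68 (edgeR adjusted p = 6.83e-06). On the other side stood Gins2 (0.73 ± 0.12, edgeR adjusted p = 9.67e-05), Gins1 (0.60, edgeR adjusted p = 0.0223), E2f1 (0.54, edgeR adjusted p = 0.000143) and Mcm7 (0.48, edgeR adjusted p = 0.00254). Ccnd1 had 1.26 ± 0.10 (edgeR adjusted p = 6.35e-09). The 26 called genes were 15 without KO day 14 replicate 1 and 17 without KO day 28 replicate 1, and the mitotic count was 8 in either. The 11 replication genes with a higher change became 5 without KO day 14 replicate 1, where Mcm2, Mcm5, Gins1, Cdc45, Rrm1 and Pold1 were lost. They became 6 without KO day 14 replicate 2 and 7 without KO day 28 replicate 1 or WT day 14 replicate 1. The 1 lower replication gene became 2 without WT day 14 replicate 1 and 3 without WT day 28 replicate 2. Without WT day 28 replicate 1 there was 1 mitotic gene with a higher change. The call of Gins1 ended without either KO day 14 library, KO day 28 replicate 2, WT day 14 replicate 2 or WT day 28 replicate 1 (edgeR adjusted p = 0.0581 to 0.0989). That of Rrm1, which had an edgeR adjusted p of 0.0445 with all libraries, held in only 1 fit that left out a library, the fit without WT day 28 replicate 2. It was lost as well with the replicate number as a block (0.0545), with RLE size factors (0.0576) and with DESeq2 (0.0527).

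Further genes of the same processes were read from lists of other replication genes (35), other mitosis genes (41), regulators (22) and CDK inhibitors (7, of which Cdkn1c did not pass the filter). Of the 41 other mitosis genes, 26, 35 and 22 were called higher in KO cells at days 1, 14 and 28, and 1, 0 and 1 lower, with medians of 0.30, 0.44 and 0.22, beside 19.5%, 23.8% and 19.8% higher and 20.8%, 25.9% and 21.2% lower over all genes. Aspm, a spindle pole protein, had 0.87, 1.12 and 0.63, and Sgo2a, which protects centromere cohesion, had 0.80, 1.13 and 0.73. Hmmr, a spindle-associated protein, had 0.87 at day 1 and averaged 175.2 CPM in KO against 80.72 CPM in WT cells at day 14. The lower ones were Melk at day 1 (-0.21, edgeR adjusted p = 0.0496) and Cenpa, the centromeric histone, at day 28 (-0.36, edgeR adjusted p = 0.00636). At day 14 Cenpa was called higher (0.56, edgeR adjusted p = 6.39e-05). CHR matches were found in 75.0% of the 36 windows of this list.

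Among the 35 other replication genes, 7, 9 and 11 were called higher and 7, 11 and 4 lower on the 3 days, with medians of -0.03, -0.10 and 0.13. At days 1 and 14 these counts lie near the shares over all genes just given, so they show nothing about the list. The genes named next are single values. Orc2, of the origin recognition complex, was higher throughout (0.42, 0.67 and 0.83), and Rpa1, of the single-strand binding protein, had 0.49 at day 1. Gins3 had 0.53 at day 14, unlike Gins2, and Prim2, the partner of Prim1, had 0.44 at day 28. The lowest were Hells, a chromatin remodeller (-0.49), and Pole, of polymerase epsilon (-0.35), at day 1, Pole (-0.62) and the clamp loader gene Rfc5 (-0.51) at day 14, and Rfc2 (-0.57) and Rfc5 (-0.35) at day 28. In this list E2F matches were in 21.4% and CHR matches in 17.9% of 28 windows.

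CDK inhibitors are the brakes of the cycle. Of the 6 tested, 2, 3 and 3 were called lower in KO cells at days 1, 14 and 28, and 0, 1 and 1 higher. Over all genes, 20.8%, 25.9% and 21.2% were called lower and 19.5%, 23.8% and 19.8% higher. A group of 6 genes is too small to be read against these shares. Cdkn2b, which encodes p15 and inhibits Cdk4 and Cdk6, had 25.7 and 27.6 CPM in KO cells at day 1, 16.1 and 15.2 CPM at day 14 and 17.04 and 16.9 CPM at day 28, against 43.95 and 49.02, 32.96 and 36.1, and 44.5 and 31.1 CPM in WT cells on the same days. The KO libraries were below the WT libraries on all 3 days, with log2 fold changes of -0.80 ± 0.12, -1.14 ± 0.14 and -1.16 ± 0.13 (edgeR adjusted p = 2.34e-05, 1.19e-06 and 5.63e-07). Cdkn2a was lower too (-0.30, -0.28 and -0.54, all called). Cdkn2c was called lower at day 14 (-0.21) and Cdkn1b, the gene of p27, at day 28 (-0.25). Called higher were Cdkn2d at day 14 (0.62) and Cdkn1a, the p53 target p21, at day 28 (0.45). The other values of these 4 genes were not called, with edgeR adjusted p from 0.0636 to 0.45.

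The other D cyclins were lower in KO cells at day 28. Ccnd2 had 6.14 and 6.17 CPM in KO against 12.98 and 13.4 CPM in WT cells at day 14 (-1.10, edgeR adjusted p = 1.18e-05) and was lower at day 28 as well (-0.72), while its day 1 value of 0.23 was not called (edgeR adjusted p = 0.158). Ccnd3 was higher at days 1 and 14 (0.34 and 0.35) and lower at day 28 (-0.51). Skp2, the ubiquitin ligase subunit that marks p27 for destruction, was 0.45 at day 1 and 1.19 at day 14, and E2f5, a repressive E2F, 0.43 and 0.93. At day 28 Skp2 averaged 69.66 CPM in KO and 45.25 CPM in WT cells. Mybl2, the gene of B-Myb, and Lin9, of the MuvB core, were higher at day 28 (0.66 and 0.69). At day 14 Lin9 already averaged 131.6 CPM in KO against 92.28 CPM in WT cells. Myc was lower at day 1 (-0.65), but at day 14 it had 105.4 and 97.98 CPM in KO against 77.73 and 72.55 CPM in WT cells. Cdk6 was lower at days 1 and 14 (-0.22 and -0.48) and averaged 52.67 CPM in KO against 72.1 CPM in WT cells at day 28. In all, 10, 11 and 14 of the 22 regulators were called higher and 2, 5 and 3 lower on the 3 days, beside 19.5%, 23.8% and 19.8% higher and 20.8%, 25.9% and 21.2% lower over all genes.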

How the data were processed

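Poly(A) RNA of 12 libraries was measured. The authors deposited raw counts of reads for each gene. Alignment to mm10 was done with STAR, per the submitters' processing notes, and counting with featureCounts of Subread; they name edgeR with no role. The sources used here give no versions, annotation or strand setting. Of 32248 rows, 3 transgene rows were left out; 0 library columns were unused. Columns were assigned to groups by the labels. Genes were kept with filterByExpr (count minimum 10, total minimum 15), leaving 13772. Counts were tested with edgeR 4.0.16 in R 4.3.3 (TMM, quasi-likelihood F test, 1 model of 6 groups, 6 residual degrees of freedom, common biological coefficient of variation 5.53%), with Benjamini-Hochberg adjustment, for 11 comparisons; the test was tried on simulated counts. CPM used TMM library sizes. Totals of 8590067 to 15357427 counts set the precision. Positions are from GENCODE M21 (GRCm38), promoter windows from RefSeq GRCm38.p6. Alternatives were RLE size factors, library totals, no filter, a replicate block, fits of the groups compared only, leaving out each library, and DESeq2 1.42.0.

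The 44 genes and the further lists were chosen with earlier results of these data known. From the further lists the text names, per KO minus WT comparison, the 2 highest and 2 lowest among called genes whose average log2 CPM is 1 or more, and all CDK inhibitors and D cyclins measured. The promoter sequences shown and the genes given per library were picked from the members after their values were seen.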

Additional observations from a re-analysis of the deposited data

Results flagged for a closer look

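A change over time that differed between KO and WT cells, by the interaction test in edgeR (adjusted p below 0.05), marked 41 values of the 44 genes. Each is the log2 change in KO cells minus that in WT cells. Groups of 2 libraries are too small for an outlier test.

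For day 14 minus day 1, 15 values stood out. The change was higher in KO cells for 10 mitotic genes: the kinesins and kinetochore genes Kif20a (0.52), Cenpe (0.49), Kif11 (0.47), Cenpf (0.40) and Tpx2 (0.35), the checkpoint genes Bub1 (0.46), Cdc20 (0.39) and Bub1b (0.28), Plk1 (0.40) and Mki67 (0.34). Tyms (0.43) was the 1 replication gene with a higher change. Of the mitotic values, those of Plk1, Bub1b and Cdc20 were not called in 10, 9 and 8 of the alternative fits, and that of Pold1 below in 13. The change was lower in KO cells for Ccnd1 (-0.78), Rrm1 (-0.39), E2f1 (-0.35) and Pold1 (-0.29).

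For day 28 minus day 14, 26 values stood out. The change was lower in KO cells for 13 mitotic genes: Plk1 (-1.12), Kif20a (-0.85), Cenpe (-0.68), Cenpf (-0.67), Ccnb1 (-0.64), Tpx2 (-0.55), Mki67 (-0.52), Ccna2 (-0.42), Cdc20 (-0.41), Aurka (-0.37), Ccnb2 (-0.34), Kif11 (-0.32) and Bub1 (-0.31), and for Tyms (-0.43). It was higher in KO cells for 11 replication genes: the helicase genes Gins2 (0.73), Gins1 (0.60), Mcm7 (0.48), Mcm3 (0.37), Cdc45 (0.35), Mcm2 (0.29) and Mcm5 (0.27), E2f1 (0.54), Cdc6 (0.46), Pold1 (0.35) and Rrm1 (0.24). Of these, the calls of Rrm1, Bub1 and Aurka were lost in 16, 11 and 10 of the alternative fits, and those of Ccnb2 and Mcm5 in 7 each. Ccnd1 (1.26) had the highest of all 41 values. Both sets use the day 14 libraries, so a value in one is not independent of that in the other.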

How the results depend on the processing

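None of the 282 called values of the 44 genes over the 11 comparisons reversed its sign in any alternative fit. Their calls were lost in 4 cases with RLE size factors, 32 with library totals alone, 18 without a filter on low counts, 34 when only the groups compared were fitted, 26 with DESeq2 and 10 to 37 when 1 library was left out. When only the groups compared were fitted, the count of called members became 13 in place of 23 for KO minus WT at day 28, 8 in place of 18 for WT day 28 minus day 14, 15 in place of 24 for WT day 28 minus day 1 and 24 in place of 15 for the interaction of day 14 minus day 1. For that interaction, leaving out the day 28 libraries, an alternative chosen after the data were seen because those replicates differ most, is the same fit, and 0 of 129 calls of days 1 and 14 were lost in it. Leaving out 1 library gave 10 to 24 called members for WT day 14 minus day 1 (19 with all), 9 to 22 for WT day 28 minus day 14 and 15 to 28 for the interaction of day 28 minus day 14 (26 with all). With a lone library in a group, the fit assumes that it varies like the other groups. Over all genes, the groups-only fit called 3612 in place of 5646 for KO minus WT at day 28 and 4093 in place of 2595 for the interaction of day 14 minus day 1, which was 1668 without KO day 1 replicate 2 and 1679 without KO day 14 replicate 1. The causes of these differences were not tested. Scaling by library totals alone shifted log2 fold changes of KO minus WT by -0.06, -0.04 and -0.09 at days 1, 14 and 28.

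Same-numbered replicates deviated together little in most pairs of groups, with correlations from -0.12 to 0.04. Between KO day 28 and WT day 28 the correlation was 0.25. The numbers were not taken to pair the samples. A block by replicate number is common to all days, so it does not model a deviation shared on day 28 alone. With the replicate number as a block, 4 of the 282 calls were lost (Aurkb in KO day 28 minus day 14, Rfc4 in WT day 28 minus day 1 and, for the interactions, Pold1 at day 14 minus day 1 and Rrm1 at day 28 minus day 14, edgeR adjusted p = 0.0522, 0.0538, 0.052 and 0.0545), and 30, 35 and 23 members were called for KO minus WT at days 1, 14 and 28, the same counts as without it.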
